A study of Mus musculus with 12 samples.

Results

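Malat1, Neat1, Meg3, Miat, Rian, Snhg11 and Gas5 are RNAs that work, as far as is known, mainly without being translated, and that are well known from neural tissue. These 7 genes were chosen by name from the 25124 genes listed in each of 2 tables of mouse retinal expression, and all 7 were found in both. All 7 also passed the filter on low values in both tables, a mean of at least 0.5 FPKM. FPKM is the number of sequenced fragments of a transcript scaled by its length and by the tags of the library.

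The samples were whole retinas of wild-type C57BL/6J mice, profiled by bulk RNA sequencing in 12 libraries that form 6 groups of 2. In the single-IOP series the intraocular pressure (IOP) of 1 eye was raised to 30 mmHg for 1 h, in animals of 3 months (3mo IOP) or 18 months (18mo IOP), and the retina was taken 2 days later. The untreated other eye gave the 3mo control and 18mo control groups. In the repeated-IOP series animals aged 3 months at the start had 4 such elevations, 1 every 2 weeks, and retinas were taken 2 days after the last (4xIOP) together with those of the other eye (4xIOP control). The controls are therefore eyes of treated animals, and no group came from an untreated animal. The study's figure legends call the replicates biological, but the labels do not tie libraries to animals. If the 2 libraries of a group were technical repeats, the p-values below would measure only the spread between libraries.

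Malat1 and Neat1 stay in the nucleus, where Malat1 gathers in nuclear speckles, stores of splicing factors, and Neat1 is the scaffold of paraspeckles, bodies built on RNA that hold RNA-binding proteins. Meg3 and Rian are read from the maternal chromosome of the imprinted Dlk1-Dio3 domain, and Miat, also called Gomafu or RNCR2, is a nuclear RNA of neurons that was first studied in the developing retina. Snhg11 and Gas5 are host genes whose introns carry small nucleolar RNAs (snoRNAs), the guides for chemical modification of ribosomal and other RNAs. Gas5 belongs to the genes that begin with a run of pyrimidines and whose RNA is made and degraded with cell growth.

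Depth was high, from 39766241 to 59455057 tags a library. The share of tags in exons of listed genes differed by series. It was 66.0% to 71.5% in the single-IOP and 44.2% to 53.7% in the repeated-IOP libraries. All 7 rod markers were above 0 in every library, and their summed level was 11839 to 23966 FPKM in the single-IOP and 4668 to 9874 FPKM in the repeated-IOP series, so the retinal label held. The libraries of the 2 ages stood apart in the balance of short and long transcripts. The ratio of the median FPKM of coding transcripts under 1000 bases to that of coding transcripts from 4000 bases up stood at 3.08 and 9.46 for 3mo control, 7.18 and 5.58 for 3mo IOP, 1.62 and 1.56 for 18mo control and 1.82 and 1.98 for 18mo IOP. In the repeated-IOP series it was 2.14 and 2.02 in control and 1.98 and 2.96 in 4xIOP. In whole tissue, fewer cells of a type and less RNA per cell cannot be told apart.

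Malat1, Gas5 and Snhg11 were the most abundant of the 7 per unit length, and Miat the least. By mean FPKM over the 8 single-IOP libraries, Malat1 ranked 271 of 25124 genes with 134 FPKM, Gas5 304, Snhg11 719, Meg3 2014, Rian 2978, Neat1 7425 and Miat 11991 with 1.25 FPKM. The fewest reads behind any value were 28, for Miat in an 18mo IOP library, and the most were 671562, for Malat1. The plot of all values by library shows that the spread between libraries of a group differed widely among the 7.

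**Figure D1:**
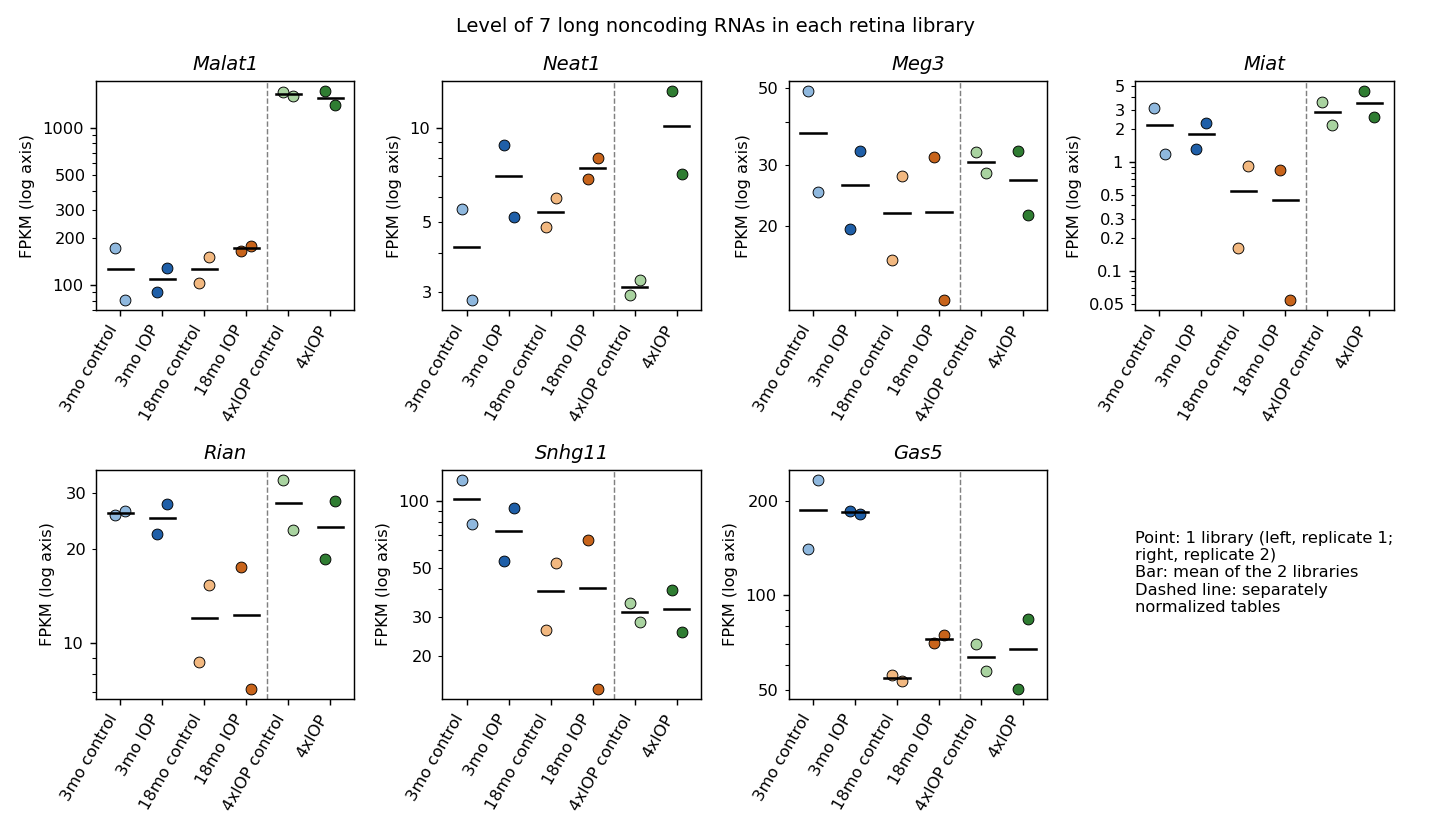
FPKM of each of the 7 RNAs (log axis, 1 panel a gene) in every library, with 1 point a library, a bar at the mean of the 2 libraries of a group and a dashed line between the 2 separately normalized tables. Gas5 is lower in all 4 libraries from 18 months than in all 4 from 3 months, Neat1 is higher in both 4xIOP libraries than in their controls, and Malat1 is at or above 1407 FPKM in every library of the repeated-IOP series.

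The test was limma on log2(FPKM + 0.5). To be called, a gene needed an adjusted p (Benjamini-Hochberg) no higher than 0.05 and a change by 1 or more in log2. A fold change on this scale understates the change of low genes. Between 18mo and 3mo control retinas 2 of the 7 RNAs were called, Gas5 and Rian, both lower at 18 months. Among all 13731 genes tested 23.2% were called in this comparison, and 11.6% were called lower. The 2 groups did not overlap for 4 of the 7, Miat, Rian, Snhg11 and Gas5, all lower at 18 months, where 32.8% of all tested genes were lower without overlap. The median log2 fold change of the 7 was -1.13, against 0.16 over all tested genes. Between 18mo IOP and 3mo IOP retinas only Gas5 was called among the 7, against 21.8% of all tested genes called and 11.6% called lower. There Miat, Rian and Gas5 were lower without overlap, where 34.5% of all tested genes were, and Malat1 was higher without overlap, where 43.2% were.

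Single pressure elevations called none of the 7. At 3 months limma called 0 of 7, with 0 at an unadjusted p under 0.05 and 0 in voom fitted to the recovered reads, against 0.575% of all tested genes called and 8.51% at an unadjusted p under 0.05. At 18 months the count was also 0 of 7, with 0 at an unadjusted p under 0.05 and 0 in voom, against 0.124% called and 9.45% at an unadjusted p under 0.05. The interaction of IOP with age, which tests whether the response differed between the ages, called 0 of 7 and 0 of all genes, with 0 of the 7 at an unadjusted p under 0.05, 0 in voom and 1.59% of all tested genes at that unadjusted level. Repeated elevation called 1 of the 7, Neat1, which was higher in 4xIOP, against 6.15% of the 13718 genes tested in that table and 5.45% called higher. The 3mo control libraries enter both the age and the 3-month IOP comparison, so these comparisons are not independent.

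**Figure D2:**
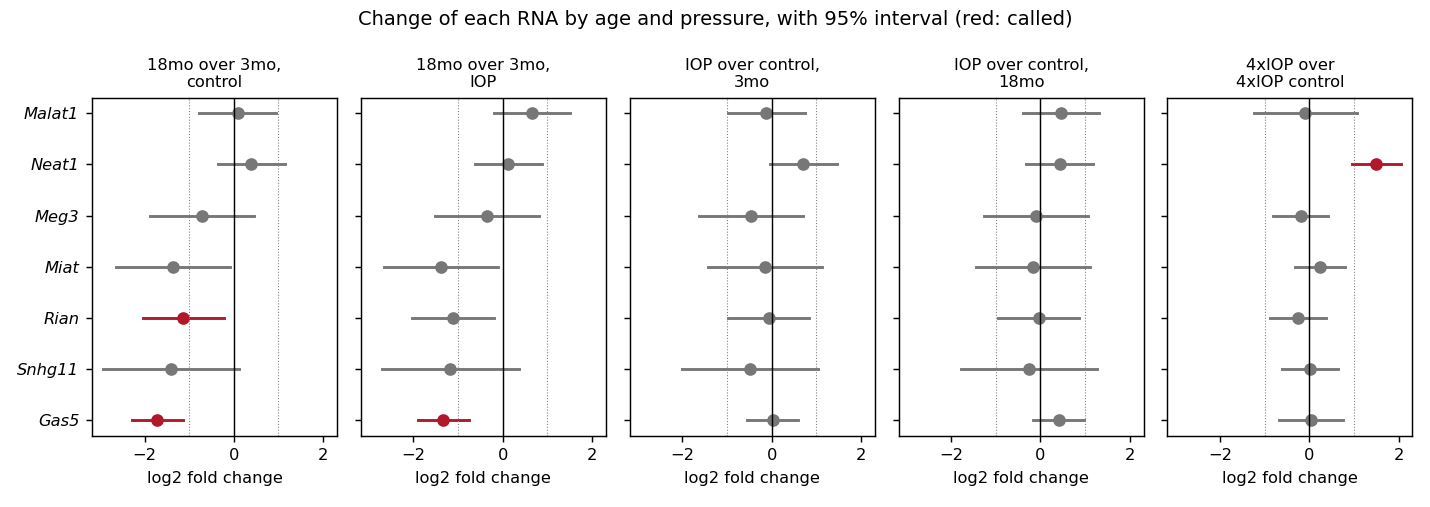
Log2 fold change on the log2(FPKM + 0.5) scale of each of the 7 RNAs in 5 comparisons, with bars for the 95% interval from limma, red for called genes and dotted lines at a change of 1 in either direction. Gas5 and Rian are called lower with age in control retinas, Gas5 alone in IOP retinas and Neat1 alone, higher, after repeated elevation, and the intervals of the other values are wide.

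Malat1 (NR_002847, 6982 bases, chr19:5795690-5802672 on the minus strand of mm10) is a nearly intronless RNA. Its 3′ end is made in an unusual way. RNase P cuts the primary transcript after a stretch rich in A, which then folds into a triple helix that protects the end in place of a poly(A) tail, and the downstream piece becomes the small cytoplasmic mascRNA. The sequence around that end is printed because a row of its own in the tables, Mascrna (NR_144621, chr19:5795924-5795981, minus strand), lies inside the 3′ part of Malat1 on the same strand. It comes from the GENCODE M21 transcript on GRCm38, chr19:5795924-5796059 on the minus strand, and the capitals mark the run of 12 A, which ends 6 bases before the Mascrna row.
Malat1 3′ region: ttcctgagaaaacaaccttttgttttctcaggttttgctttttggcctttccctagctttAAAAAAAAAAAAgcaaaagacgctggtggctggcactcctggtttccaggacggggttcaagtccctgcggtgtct
The annotated transcript goes on for 234 bases after the Mascrna row and holds the polyadenylation signal AATAAA in its last 60 bases, searched on the transcribed strand.

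The 3mo control libraries held 172 and 80.7 FPKM of Malat1, against 91.2 and 129 in 3mo IOP, 103 and 152 in 18mo control and 166 and 178 in 18mo IOP. The 3mo control libraries differed 2.13-fold from each other and spanned most of the other groups, and only 18mo IOP lay above the group next to it, 18mo control, without overlap. The age difference was 0.08 in log2 in control retinas (SE 0.37, adjusted p = 0.868) and 0.66 in IOP retinas (adjusted p = 0.182). With the trend of each library with transcript length removed the second was 0.15 (adjusted p = 0.659), and with a library left out it was 0.41 to 0.91. The IOP difference was -0.12 at 3 months and 0.46 at 18 months, neither called, and the interaction was 0.57 (SE 0.53, adjusted p = 1.00). The sign of the age difference in control retinas turned with median-of-ratios scaling, to -0.09. After repeated elevation Malat1 measured 1713 and 1407 FPKM against 1704 and 1603 in the controls, and the groups overlapped (log2 fold change -0.09, 95% interval -1.24 to 1.06).

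Reads assigned to Mascrna rose with age while Malat1 was not called. Mascrna measured 8.03 and 5.51 FPKM in the 3mo control libraries, 8.07 and 8.42 in 3mo IOP, then 39.2 and 28.5 in 18mo control and 42.8 and 32.2 in 18mo IOP. All 4 libraries of 18 months stood above all 4 of 3 months, with 76 to 134 reads each against 15 to 25. The rise was 2.24 in log2 between control retinas (SE 0.25, adjusted p = 0.00344) and 2.10 between IOP retinas (adjusted p = 0.00263). It was called under all 9 other processing settings in both comparisons and with each library left out in turn. Single elevations gave 0.29 at 3 months and 0.15 at 18 months, and repeated elevation 0.54 (4.41 and 4.56 against 8.43 and 5.40 FPKM, from 10 to 27 reads), none of them called. The row is 57 bases long, shorter than a usual sequencing fragment, and the values do not say whether its reads came from the released small RNA or from Malat1 transcripts that run past it.

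**Figure D3:**
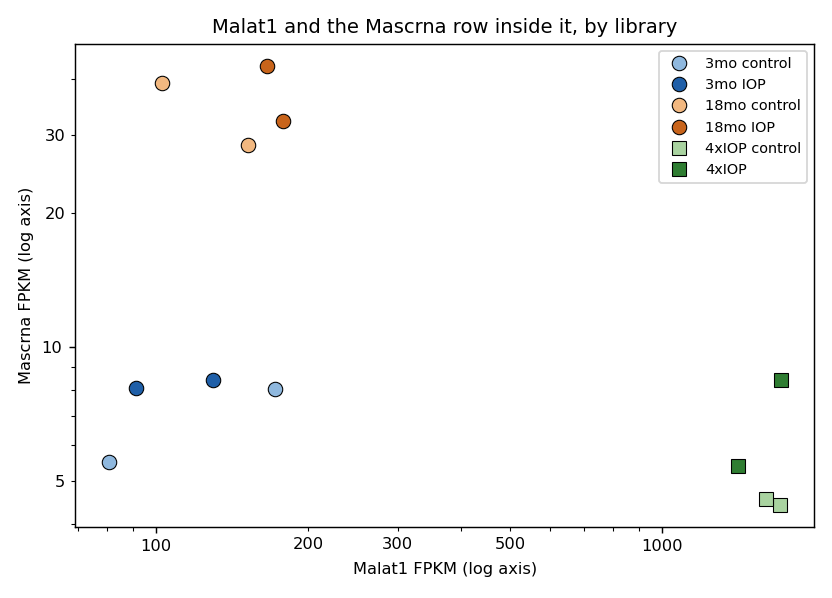
FPKM of Malat1 (x axis, log) against FPKM of the Mascrna row inside its 3′ part (y axis, log) in the 12 libraries, with 1 point a library coloured by group. The 4 libraries of 18 months lie at 28.5 to 42.8 FPKM of Mascrna and the other 8 at 4.41 to 8.43, while the repeated-IOP libraries stand apart to the right in Malat1.

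Of 12 genes for nuclear speckle proteins, all tested, 2 rose and 1 fell with age in control retinas, a share near the 23.2% of all tested genes called. Srrm2 (log2 fold change 1.49) and Srrm1 (1.28), large splicing coactivators rich in serine and arginine, rose, and the splicing factor Srsf3 fell by 1.31 in log2. The same 3 were called in IOP retinas, at 1.42, 1.20 and -1.07. With a library left out, Srrm1 and Srsf3 stayed called in 4 of 4 fits in control retinas and Srrm2 in 1. The median of the 12 was 0.62 in control retinas, and limma and voom called 0 of the 12 in each IOP comparison, with 1 at an unadjusted p under 0.05 at 3 months and 0 in the others.

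The other large difference of Malat1 was between the tables. Its level in the 4xIOP control libraries was 13.1 times that in the 3mo control libraries, by ratio of the mean FPKM, and it took 1.83% to 2.71% of exonic tags in the repeated-IOP series against 0.0810% to 0.182% in the single-IOP series. The same ratio was 0.743 for Neat1, 0.829 for Meg3, 1.32 for Miat, 1.08 for Rian, 0.313 for Snhg11 and 0.342 for Gas5. A pair of other RNAs, chosen after their values were seen, stood further apart. Rpph1, the RNA of RNase P, measured 53255 to 82734 FPKM in the repeated-IOP and 4.44 to 28.0 FPKM in the single-IOP libraries. Rmrp, the RNA of the related RNase MRP, measured 17177 to 31306 and 0.921 to 4.84 FPKM. The Mascrna row was not higher in the repeated-IOP series, at 4.41 to 8.43 against 5.51 to 42.8 FPKM. Rpph1 and Rmrp are made without a poly(A) tail, and all 12 libraries are labelled as poly(A) RNA with 1 protocol, so these levels go against the label in the repeated-IOP series. The tables were also normalized separately and hold different animals. The share of exonic tags is taken within each library, so it does not depend on the separate normalization. Whether the libraries of both series were prepared alike is not known. In the Malat1 difference the preparation and the animals cannot be told apart, and the ratios were not tested.

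Neat1 (NR_003513, 3184 bases, chr19:5842296-5845480, minus strand) exists as a short RNA with a poly(A) tail and as a long RNA that starts at the same place and is the form that builds paraspeckles. The row covers the part that both share, so the tables give 1 value that does not separate the forms. The libraries are labelled as poly(A) RNA, and how much of the value came from the long form is not known. The last 60 bases of each, from GENCODE M21 on GRCm38, are printed to show how they end. The short form ends at chr19:5842307-5842366 (minus strand), where capitals mark its AATAAA signal, and the long form at chr19:5824708-5824767 (minus strand), where capitals mark runs of at least 4 A.
Neat1 short end: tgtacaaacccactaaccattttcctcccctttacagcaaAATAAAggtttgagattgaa
Neat1 long end: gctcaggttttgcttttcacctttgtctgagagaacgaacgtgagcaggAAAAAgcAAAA
The annotated transcripts are 3004 and 20771 bases long, and AATAAA occurs once in the last 60 bases of the short form and not in those of the long form.

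Neat1 rose 3.26-fold, by ratio of the means, after repeated elevation. It measured 2.93 and 3.27 FPKM in the 4xIOP control libraries and 13.1 and 7.16 FPKM in the 4xIOP libraries. Both treated libraries stood above both controls, and the treated libraries differed from each other 1.83-fold. The means were 3.10 ± 0.242 and 10.1 ± 4.20 FPKM (SD, n = 2 each), and the log2 fold change was 1.50 (SE 0.26, 95% interval 0.95 to 2.06, limma adjusted p = 0.00186). Neat1 was called with each of the 4 libraries left out in turn, at 1.09 to 1.92 in log2, but not without the filter on low values (adjusted p = 0.0638) or in voom (0.0616). Among all tested genes 27.7% were higher in both 4xIOP libraries than in both controls.

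Markers of some other cell types moved in the same libraries, and those of others did not separate the groups. Among all tested genes 5.45% were called higher and 0.693% lower in 4xIOP. The summed FPKM of 7 microglia and leukocyte markers was 5.96 and 6.61 in the 4xIOP controls and 68.6 and 62.9 in 4xIOP, with all 7 above 0 in every library and 6 of 7 called higher. The summed FPKM of 7 lens markers was 4.22 and 0.511 in the controls and 45.2 and 96.5 in 4xIOP, and all 5 that were tested were called higher. Rod markers summed to 9448 and 9874 FPKM in the controls and 4668 and 7017 in 4xIOP, with 0 of 7 called by limma, 2 at an unadjusted p under 0.05 and 3 called in voom. Retinal pigment epithelium markers summed to 28.6 and 35.1 FPKM in the controls and 6.66 and 11.02 in 4xIOP, with 2 of 3 tested called lower, and optic nerve oligodendrocyte markers summed to 8.12 and 8.72 FPKM in the controls and 10.998 and 14.5 in 4xIOP, with 1 of 3 called higher. The sums overlapped between controls and 4xIOP for markers of retinal ganglion cells (149 to 270 against 150.5 to 271 FPKM), amacrine cells (66.0 to 74.9 against 55.5 to 69.8) and blood (37.3 to 56.1 against 37.5 to 56.8), with 0 called by limma or voom and 0 at an unadjusted p under 0.05 in each list. Muller glia markers summed to 955 to 1044 FPKM in the controls and 932 to 954 in 4xIOP, with 0 of 6 called by limma, 2 at an unadjusted p under 0.05 and 2 called in voom. The part of these differences in the Neat1 difference was not tested.

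Single elevations gave smaller Neat1 differences that were not called. Neat1 measured 5.52 and 2.82 FPKM in the 3mo control libraries, 8.81 and 5.21 in 3mo IOP, 4.83 and 5.96 in 18mo control and 6.87 and 8.03 in 18mo IOP. The groups overlapped at 3 months, where the log2 fold change was 0.71 (SE 0.33, 95% interval -0.05 to 1.46, adjusted p = 0.640), and did not overlap at 18 months, where it was 0.43 (adjusted p = 0.920) and 36.5% of all tested genes were higher without overlap. The interaction was -0.27 (SE 0.46, adjusted p = 1.00). Neat1 differed by 0.39 in log2 between 18mo and 3mo control retinas (adjusted p = 0.345) and by 0.12 between IOP retinas (0.778). The single and repeated responses were fitted in separate tables, and their difference was not tested.

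Genes for the proteins of paraspeckles were not called after repeated elevation. Of 12 such genes, all tested, limma called 0 in 4xIOP, against 6.15% of all tested genes, a share that leaves under 1 gene in 12. Without overlap, 0 of 12 were higher, against 27.7% of all tested genes. Nono and Sfpq, a pair of core paraspeckle proteins that bind Neat1, stood at log2 fold changes of 0.17 and -0.09. Of the 12, 0 reached an unadjusted p under 0.05 and 0 were called in voom. The single elevations also called 0 of 12 at each age, with 0 at an unadjusted p under 0.05 and 0 in voom. Among all tested genes the age comparisons called 23.2% in control and 21.8% in IOP retinas. With age, Sfpq rose in control retinas (54.3 to 112 FPKM, log2 fold change 1.07, adjusted p = 0.0118) as the only gene called of the 12, a call kept in 1 of 4 fits with a library left out, and 0 of 12 were called in IOP retinas, with 6 at an unadjusted p under 0.05 and 1 called in voom.

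Meg3 (NR_003633, 11467 bases, chr12:109545398-109568650, plus strand) and Rian (NR_028261, 3558 bases, chr12:109603945-109661711, plus strand) lie in tandem in the Dlk1-Dio3 domain, where Meg3 stands at the imprinting control region and Rian hosts many small RNAs. Both were well expressed. Meg3 measured 48.8 and 25.1 FPKM in the 3mo control libraries, 19.6 and 32.9 in 3mo IOP, 16.0 and 27.8 in 18mo control and 31.6 and 12.3 in 18mo IOP. Every group overlapped its neighbours in level, and the 18mo IOP libraries differed 2.57-fold from each other. None of the Meg3 differences was called, with log2 fold changes of -0.72 with age in control retinas (SE 0.51, adjusted p = 0.267), -0.36 with age in IOP retinas, -0.46 and -0.09 with single elevation at 3 and 18 months, and -0.20 with repeated elevation. With a library left out the age difference in control retinas was -1.19 to -0.25, and with the length trend removed it was -1.17 and called (adjusted p = 0.0414).

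Rian was lower in 18-month retinas. It measured 25.6 and 26.4 FPKM in the 3mo control libraries, 22.2 and 27.7 in 3mo IOP, against 8.73 and 15.3 in 18mo control and 17.5 and 7.17 in 18mo IOP. No library of 18 months reached the lowest of 3 months, and within 18 months the libraries of each group differed about as much as the ages did. In control retinas the mean fell from 26.0 ± 0.561 to 12.04 ± 4.68 FPKM (SD, n = 2 each; log2 fold change -1.13, SE 0.40, adjusted p = 0.0474). The call was lost without the filter (adjusted p = 0.0927), with a block for replicate number (0.0941) and with any of the 4 libraries left out (0.0631 to 0.246). In IOP retinas the difference was -1.11 and missed the threshold (adjusted p = 0.0533), but without 18mo IOP replicate 1 it was -1.72 and passed (0.0186), and without 18mo IOP replicate 2 it was -0.49 (0.282). It also passed with median-of-ratios scaling (0.0392), in voom (0.0386) and with the length trend removed (0.0289). Single elevation gave -0.07 at 3 and -0.04 at 18 months, and repeated elevation -0.26, from 33.0 and 23.0 FPKM in control to 18.6 and 28.4 in 4xIOP.

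The neighbours of Meg3 and Rian did not all change alike with age. Dlk1 and Rtl1, read from the paternal chromosome, were almost silent, with Dlk1 at 0 to 0.0360 FPKM and Rtl1 at 0 to 0.0170 FPKM in the single-IOP libraries, from at most 6 reads each. Dio3, also paternal and the deiodinase that inactivates thyroid hormone, measured 0.215 to 1.49 FPKM and fell with age in IOP retinas (log2 fold change -1.08, adjusted p = 0.0224) but was not called in control retinas (-0.54, 0.163). The IOP call was kept in 1 of 4 fits with a library left out. Mirg, the host of a microRNA cluster read from the maternal chromosome, measured 2.83 FPKM on average in 3mo control and 2.05 in 18mo control (-0.42, adjusted p = 0.458). At 18 months its libraries held 1.43 and 2.665 FPKM in control and 2.905 and 0.743 in IOP. Mirg was thus low in the same 18-month libraries as Meg3 and Rian. Begain, a synaptic protein gene next to the domain, rose by 1.52 (adjusted p = 0.00772) in control and by 1.83 in IOP retinas.

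The small RNA rows inside both genes were read sparsely. The microRNA gene Mir770 (chr12:109563692-109563785, plus strand) lies inside Meg3, and both of its mature forms are printed because its row was called where Meg3 was not. Sequences are from RefSeq on GRCm38.p6, the 5p form at chr12:109563710-109563731 and the 3p form at chr12:109563744-109563765, with the seed, bases 2 to 8, in capitals.
mmu-miR-770-5p: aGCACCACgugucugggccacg
mmu-miR-770-3p: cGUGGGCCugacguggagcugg
The 2 seeds differ. The row measured 17.1 FPKM on average in 3mo control and 4.74 in 18mo control (log2 fold change -1.69, adjusted p = 0.0202), from 19 to 84 reads a library, and it stayed called in only 1 of 4 fits with a library left out. It was not called in IOP retinas (-1.05, adjusted p = 0.0972). Poly(A) libraries do not hold mature microRNAs as such, and reads of this row overlap the Meg3 gene on the same strand. Of 10 small RNA rows inside Rian, 9 had at most 8 reads in any single-IOP library, and the exception, AF357359, had 6 to 37.

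Miat (NR_003718, 8709 bases, chr5:112213228-112228948, minus strand) carries repeats of ACTAAC, the letters of the intron branch point that splicing factor 1 binds. A stretch with 4 of them, bases 5116 to 5231 of the GENCODE M21 transcript on GRCm38 (chr5:112216757-112216872, minus strand), is printed with the repeats in capitals.
Miat repeats: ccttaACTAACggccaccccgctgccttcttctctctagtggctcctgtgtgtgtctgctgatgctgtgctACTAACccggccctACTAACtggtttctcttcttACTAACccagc
The transcript of 8758 bases holds 11 copies on the transcribed strand, between bases 4539 and 6449. Only 13 of 42587 mouse transcripts of at least 2000 bases (0.0305%) hold as many, and the median is 0. The transcripts of Neat1, Meg3 and Snhg11 hold 1 copy each and that of Malat1 holds 0.

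Miat was low and variable. It measured 3.17 and 1.20 FPKM in the 3mo control libraries, 1.315 and 2.29 in 3mo IOP, 0.162 and 0.918 in 18mo control and 0.847 and 0.0540 in 18mo IOP. All 4 libraries of 18 months stood below all 4 of 3 months, yet within 18 months the libraries of a group differed 5.67-fold and 15.7-fold. The log2 fold change with age was -1.37 in control retinas (SE 0.56, adjusted p = 0.0756) and -1.38 in IOP retinas (0.0771), below the call in both. The size moved with the setting, to -2.46 and -3.11 in voom and to -2.00 and -2.27 with a pseudocount of 0.1, none of them called. With median-of-ratios scaling the control difference passed (adjusted p = 0.0498), and with the length trend removed both passed, at -1.82 (0.0146) and -1.93 (0.0143). With a library left out the control difference was -1.92 to -0.81 and not called. The IOP difference was -2.02 and called without 18mo IOP replicate 1 (adjusted p = 0.0433) and -0.74 without 18mo IOP replicate 2 (0.349). Miat differed by -0.15 and -0.17 after single elevation at 3 and 18 months. In voom the 18-month value was -1.03, also not called. In the repeated-IOP series it measured 3.59 and 2.20 FPKM in control and 4.47 and 2.58 in 4xIOP (0.24, adjusted p = 0.856).

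Of 4 listed genes for splicing factors that bind Miat, 3 were held in the tables and tested. Sf1, which encodes splicing factor 1, rose with age by 1.25 in log2 in control (adjusted p = 0.00680) and by 1.14 in IOP retinas. Celf3, a neuronal splicing factor, rose by 1.56 and 1.55, and Srsf1 was not called. With a library left out, the calls of Sf1 and of Celf3 were each kept in 3 of 4 fits in control and in 2 of 4 in IOP retinas. In the IOP comparisons 0 of the 3 were called by limma or voom or reached an unadjusted p under 0.05.

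Snhg11 (NM_175692, 5857 bases, chr2:158375638-158386145, plus strand) is a snoRNA host gene of neurons that the tables list as protein-coding. It measured 124 and 78.9 FPKM in the 3mo control libraries, 53.7 and 92.5 in 3mo IOP, 26.3 and 52.3 in 18mo control and 66.7 and 14.3 in 18mo IOP. The control groups of the 2 ages did not overlap, and the IOP groups did. The log2 fold change with age was -1.40 (SE 0.66, adjusted p = 0.114) in control and -1.17 (adjusted p = 0.181) in IOP retinas. With the length trend removed the first was -1.81 and called (adjusted p = 0.0426), and with a library left out it was -1.89 to -0.91. Without 18mo IOP replicate 1 the second was -2.27 and called (adjusted p = 0.0248), and without 18mo IOP replicate 2 it was -0.08. Single elevation gave -0.49 and -0.25. In the repeated-IOP series the levels were 34.8 and 28.6 FPKM in control and 39.6 and 25.7 in 4xIOP, with a log2 fold change of 0.01 (95% interval -0.61 to 0.64).

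Meg3, Miat, Rian and Snhg11 varied together over the single-IOP libraries, more than Malat1 or Neat1 varied with them. Over the 8 single-IOP libraries the 6 pairs among these 4 had a Pearson r of log2(FPKM + 0.5) of 0.78 to 0.95, and the 8 pairs of Malat1 or Neat1 with them had an r of -0.37 to 0.24. The r of Gas5 was 0.78 with Rian, 0.65 with Miat, 0.58 with Snhg11 and 0.31 with Meg3. These are descriptions over 8 libraries that share their age groups, their normalization and their depth. Within 18 months the same libraries were low for all 4 RNAs, namely control replicate 1 and IOP replicate 2. The labels do not say whether these libraries came from the eyes of the same animal.

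Neuronal markers were low in the same libraries. The summed FPKM of 6 amacrine cell markers, all above 0 in every library, was 33.8 and 71.8 in 18mo control and 75.4 and 17.9 in 18mo IOP, against 51.8 to 61.6 over the 4 libraries of 3 months. The summed FPKM of 8 retinal ganglion cell (RGC) markers, also all above 0, reached 352 and 663 in the 3mo control libraries, 480.5 and 546 in 3mo IOP, 59.3 and 113 in 18mo control and 128 and 54.1 in 18mo IOP. Of the 8 RGC markers, 5 fell with age in control and 7 in IOP retinas, against 11.6% of all tested genes called lower in each. Of 6 amacrine markers 1 fell in each, a share near that of all tested genes. Rod marker sums ran from 15598 to 17499 FPKM in 18mo control and from 11839 to 14157 in 18mo IOP, with no such split between the libraries. The part of cell composition in the levels of these 4 RNAs was not tested.

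**Figure D4:**
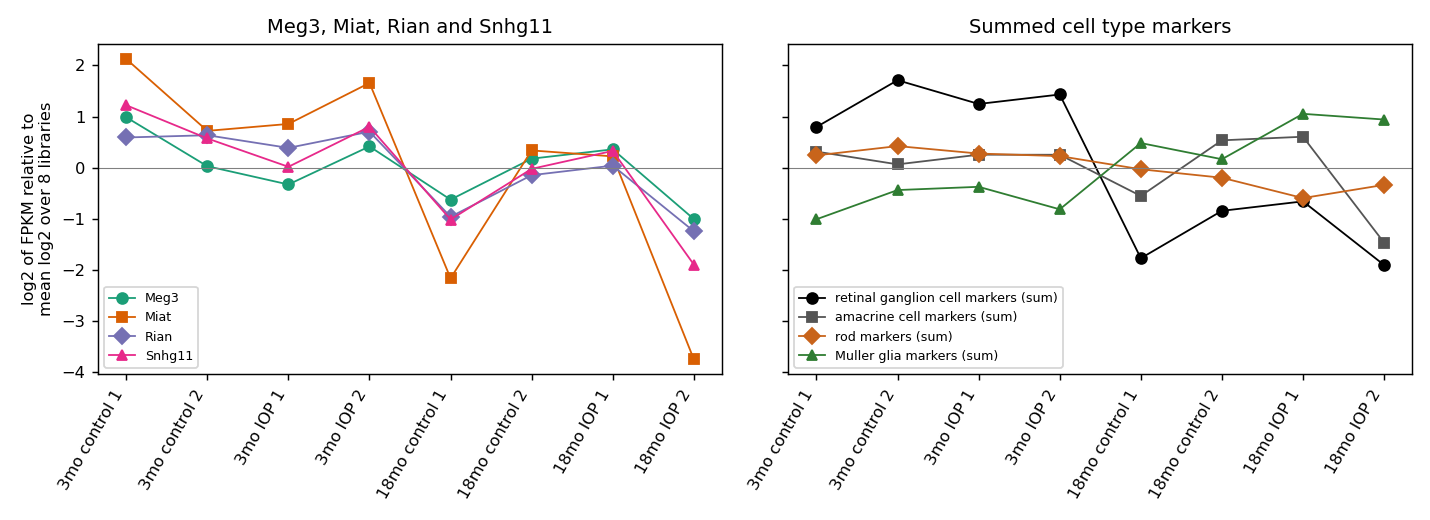
Level in each of the 8 single-IOP libraries (x axis, libraries by group) relative to the mean over the 8, in log2 FPKM (y axis), with Meg3, Miat, Rian and Snhg11 at left and the summed markers of RGCs, amacrine cells, rods and Muller glia at right, where lines only join the libraries. All 4 RNAs and the amacrine and RGC markers dip in 18mo control replicate 1 and 18mo IOP replicate 2.

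Gas5 (NR_153813, 699 bases, chr1:161034916-161038539, plus strand) had the lowest adjusted p of the 7 in both age comparisons. It measured 140.3 and 232 FPKM in the 3mo control libraries, 186 and 182 in 3mo IOP, against 55.9 and 53.4 in 18mo control and 70.8 and 74.6 in 18mo IOP. The highest library of 18 months was below the lowest of 3 months, and at 18 months the IOP libraries stood above the control libraries. In control retinas the mean fell from 186 ± 65.1 to 54.6 ± 1.79 FPKM (SD, n = 2 each), to 0.293 of its level (log2 fold change -1.72, SE 0.25, 95% interval -2.29 to -1.14, adjusted p = 0.00505). In IOP retinas it fell from 184 ± 2.73 to 72.7 ± 2.74 FPKM (log2 fold change -1.33, adjusted p = 0.00801). The interaction was 0.38 (SE 0.35, adjusted p = 1.00), so the fall was not shown to differ between control and IOP eyes.

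The Gas5 difference with age was smaller once a trend with transcript length was removed. The order of the 8 single-IOP libraries by Gas5 was also their order by the ratio of short to long coding transcripts given above, which splits by age as Gas5 does, so that the part of either cannot be told apart. With the trend of each library with transcript length removed, Gas5 fell by 0.73 in log2 in control retinas (adjusted p = 0.00370) and by 0.33 in IOP retinas (0.0595), below the fold threshold in both. The control call was kept with each library left out (-2.08 to -1.35), and the IOP call was lost without either 3mo IOP library (adjusted p = 0.0592 and 0.0568). Single elevation gave 0.03 at 3 months, which turned to -0.18 with median-of-ratios scaling, and 0.41 at 18 months (adjusted p = 0.824). Repeated elevation gave 70.1 and 57.3 FPKM in control against 50.5 and 84.2 in 4xIOP (0.04), and median-of-ratios scaling turned that to -0.09.

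**Figure D5:**
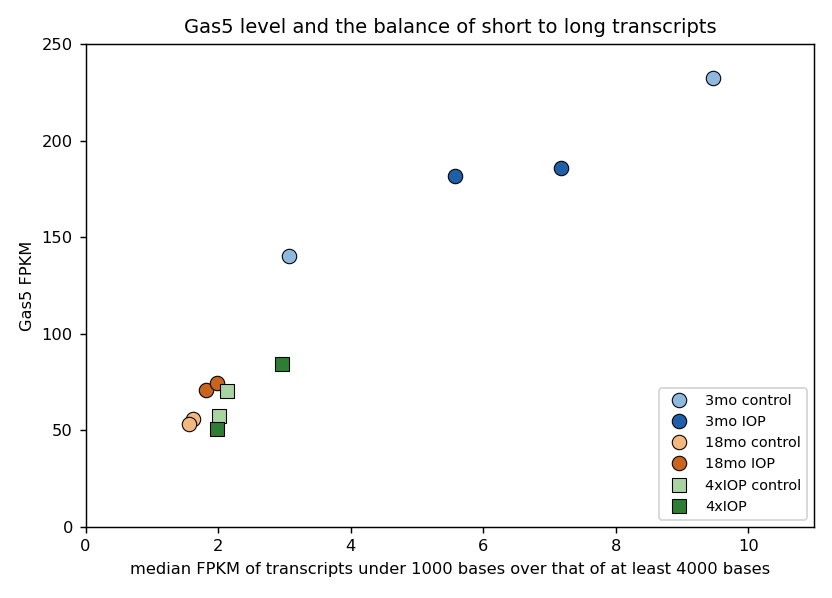
FPKM of Gas5 (y axis) against the ratio of the median FPKM of short to long coding transcripts (x axis) in 12 libraries, with circles for the single-IOP and squares for the repeated-IOP series, coloured by group. Gas5 is higher where the ratio is higher, from 53.4 FPKM at a ratio of 1.56 to 232 FPKM at 9.46 within the single-IOP series.

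Of 18 other snoRNA host genes, all tested, 6 fell and 0 rose between control retinas, which is 33.3% against 11.6% of all tested genes called lower. The largest falls were those of Snhg6 (62.2 to 14.2 FPKM, log2 fold change -1.92), Epb41l4aos (-1.81) and Snhg3 (-1.71). The median of the 18 was -0.84. In IOP retinas 7 fell and 0 rose, led by Snhg6 (-2.05), Epb41l4aos (-1.94) and Snhg3 (-1.69), with a median of -0.95. With the length trend removed, 0 of 18 fell and 1 rose in control retinas and 1 of 18 fell in IOP retinas. With a library left out the falls numbered 1 to 9 and 0 to 6. In the IOP comparisons 0 of the 18 were called by limma or voom, with 2 at an unadjusted p under 0.05 at 3 months, 1 at 18 months and 1 in 4xIOP.

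Of the snoRNAs hosted by Gas5, Snord47 has a row of its own. It guides methylation of ribosomal RNA, and it is printed to show the elements of its class. The sequence is the GENCODE M21 transcript of 77 bases on GRCm38 (chr1:161038082-161038158, plus strand), and capitals mark the box C letters TGATGA and the box D letters CTGA.
Snord47: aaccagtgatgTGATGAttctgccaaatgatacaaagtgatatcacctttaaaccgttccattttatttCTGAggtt
The row measured 7.53 and 11.5 FPKM in the 3mo control libraries, 10.1 and 10.5 in 3mo IOP, 3.57 and 5.01 in 18mo control and 10.8 and 13.9 in 18mo IOP, from 10 to 53 reads. The 18mo control libraries alone were low. Snord47 fell with age in control retinas (log2 fold change -1.05, adjusted p = 0.0130), a call kept in 2 of 4 fits with a library left out, but stood at 0.24 in IOP retinas (0.443), where Gas5 fell. The IOP difference at 18 months was 1.43 (adjusted p = 0.0985), and the interaction of 1.29 was not called (adjusted p = 1.00).

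Each of the 7 RNAs had other genes that followed its pattern over the 8 single-IOP libraries. Likeness was the Pearson r of log2(FPKM + 0.5) among tested genes, and the closest 3 are named. The closest to Malat1 were Exoc6b (0.957), Etv4 (0.948) and Dennd6a (0.941), and to Neat1 they were Khdrbs1 (0.970), Wwc1 (0.967) and Fat1 (0.952). Meg3 was closest to Gria2, a glutamate receptor subunit (0.981), to the potassium channel gene Kcna2 (0.975) and to Strip2 (0.961), and Miat to Srgap1 (0.989), Dzip3 (0.988) and Gm30223 (0.985). Rian was closest to the cannabinoid receptor gene Cnr1 (0.998), Alcam (0.995) and Smarca1 (0.994). Snhg11 was closest to Dzank1 (0.990), to the sodium channel gene Scn2a (0.989) and to A830010M20Rik (0.988). Gas5 was closest to Chmp5 (0.999), Srsf3 (0.998) and Tcp1 (0.998).

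The number of genes with an r of at least 0.9 was 17 for Malat1, 34 for Neat1, 43 for Meg3, 148 for Miat, 214 for Snhg11, 424 for Rian and 2419 for Gas5. The patterns of Malat1, Neat1 and Meg3 were thus shared with few genes, and that of Gas5 with many. The 8 libraries share 2 ages that differ in many genes, so a high r also arises from any pair of genes that differ with age. In the 4 repeated-IOP libraries the r with the same genes, in the order named, was 0.97, 0.98 and 0.79 for Gas5 and 0.13, 0.96 and 0.96 for Neat1. It was 0.24, 0.43 and 0.58 for Rian, 0.64, -0.13 and 0.24 for Miat and 0.22, -0.06 and -0.60 for Snhg11. For Malat1 it was -0.34, -0.35 and 0.31, and for Meg3 -0.57, -0.59 and -0.12.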

How the data were processed

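RNA was prepared with TRIzol from whole mouse retinas and sequenced from libraries labelled as poly(A) RNA and strand-specific. 3 RNAs without a poly(A) tail, Rpph1, Rmrp and Scarna10, were far higher in the repeated-IOP than in the single-IOP series, so whether both series were prepared alike is in doubt. Per the labels and the study's methods, the authors aligned reads to mm10 with STAR 2.7.8a and used HOMER to count uniquely mapped tags over exons, with 1 isoform kept per locus. The authors deposited FPKM values per library, with replicates not pooled, in 1 table for each series, and each table was normalized separately. The authors themselves tested with DESeq2 (the submitters' processing notes name DESeq 1.24.0).

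Multiplied by transcript length, an FPKM value is a multiple of what 1 read is worth, so tags and reads of each library were recovered. At least 99.99% of the values in each library came out whole. Depth is given with the samples above.

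Tested genes had a mean over the libraries of 0.5 FPKM or more. Their log2(FPKM + 0.5) went into lmFit and into eBayes with a mean-variance trend (limma 3.58.1, R 4.3.3). One fit held the 4 groups of the single-IOP series (8 libraries, 4 residual degrees of freedom) and another the 4 repeated-IOP libraries (2 residual degrees of freedom). P-values were Benjamini-Hochberg adjusted over all tested genes. Calls needed an adjusted p no higher than 0.05 and a change by 1 or more in log2, except that no fold was asked of the interaction. The steps were tested on simulated data.

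Groups came from the labels. Replicate numbers were checked for pairing through the correlation of same-numbered deviations from group means, which was -0.28 and -0.53 in the single-IOP series and -0.29 in the repeated-IOP series, so the numbers were not taken as pairs.

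The 7 RNAs, the lists of related genes and the marker lists were chosen with earlier results of these data known. Named are the 7, the rows inside them, the called genes of each list (at most 3 a direction and comparison), the neighbours Mirg, Dlk1, Rtl1 and Dio3, and the 3 genes most alike each RNA. Further rows named were chosen after their values were seen. Marker lists covered rods, RGCs, amacrine cells, Muller glia, microglia and leukocytes, lens, blood, optic nerve oligodendrocytes and retinal pigment epithelium. Of the 7 RefSeq identifiers 5 matched a GENCODE M21 transcript, and Rian and Gas5 did not. Alternatives were pseudocounts of 0.1 and 1, no filter, median-of-ratios size factors, a replicate block, the adjusted p alone, each library left out, a length trend removed by splines with 5 degrees of freedom, voom on the recovered reads and, for likeness, Spearman rho in place of Pearson r, which shared 11 (Gas5) to 67 (Meg3) of the 100 closest genes. A crossed pairing was chosen after seeing the data.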

Additional observations from a re-analysis of the deposited data

How the results depend on the processing

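The number of the 7 RNAs called stayed at 0 for both single elevations and the interaction under all alternatives. For age in control retinas it was 2, and became 1 without a filter on low values, 3 with median-of-ratios scaling and 4 with the length trend removed. For age in IOP retinas it was 1, and became 2 with median-of-ratios scaling, 2 once the length trend was removed, 2 in voom, and 0 to 4 with a library left out. For repeated elevation it was 1, and became 0 without the filter and 0 in voom. With the length trend removed Gas5 lost its call in both age comparisons, at -0.73 in log2 in control and -0.33 in IOP retinas. In control retinas Rian stayed called, and Miat (-1.82, adjusted p = 0.0146), Snhg11 (-1.81, 0.0426) and Meg3 (-1.17, 0.0414) passed too. In IOP retinas Miat (-1.93, 0.0143) and Rian (-1.31, 0.0289) were the ones called. The cause was not tested.

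A replicate block for same-numbered libraries gave 1 RNA called in place of 2 with age in control retinas and changed no other count of the 7. The numbers did not mark pairs by the check given above. A crossed pairing, chosen after seeing the data, gave 4 calls with age in control retinas, 4 with age in IOP retinas and 1 after repeated elevation. In both age comparisons the 4 were Miat, Rian, Snhg11 and Gas5.

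Signs turned only for values that were not called. Median-of-ratios scaling turned Malat1 with age in control retinas to -0.087, Gas5 at 3 months to -0.18, Miat in the interaction to 0.10 (also 0.036 with a pseudocount of 1), and Snhg11 and Gas5 in 4xIOP to -0.12 and -0.095. In voom these were -0.090 for Malat1, -0.17 for Gas5 at 3 months, and -0.11 and -0.081 for Snhg11 and Gas5 in 4xIOP. With the length trend removed Malat1 was -0.35 with age in control retinas, Neat1 -0.040 with age in IOP retinas, Gas5 -0.10, Malat1 0.043 and Miat 0.052 with IOP at 3 months, Meg3 0.051 at 18 months, and Gas5 -0.11 and Malat1 0.0041 in 4xIOP.

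Leaving out 1 library turned more signs of uncalled values. The ranges were -0.46 to 0.63 for Malat1 and -0.037 to 0.82 for Neat1 with age in control retinas, and -0.23 to 0.47 for Neat1 and -1.02 to 0.31 for Meg3 with age in IOP retinas. With IOP at 3 months they were -0.66 to 0.43 for Malat1, -0.93 to 0.015 for Meg3, -0.71 to 0.41 for Miat, -0.22 to 0.090 for Rian and -0.34 to 0.39 for Gas5. At 18 months they were -0.76 to 0.57 for Meg3, -0.81 to 0.48 for Miat, -0.66 to 0.57 for Rian and -1.35 to 0.84 for Snhg11. In the interaction they were -0.70 to 0.16 for Neat1, -0.30 to 1.03 for Meg3, -0.66 to 0.62 for Miat, -0.59 to 0.64 for Rian and -0.86 to 1.32 for Snhg11. In 4xIOP they were -0.23 to 0.052 for Malat1, -0.49 to 0.10 for Meg3, -0.11 to 0.58 for Miat, -0.56 to 0.044 for Rian, -0.29 to 0.32 for Snhg11 and -0.33 to 0.41 for Gas5.

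The share of all genes called also moved. With age in control retinas it was 23.2%, with 1595 genes higher and 1590 lower, and median-of-ratios scaling gave 1059 and 1968 while the median of all genes went from 0.16 to 0.01. In IOP retinas 1407 and 1593 became 1116 and 1770. With IOP at 3 months 79 genes were called, against 3 in voom, 9 without the filter, 21 with median-of-ratios scaling, 20 with the block, 120 with the length trend removed, 312 with the crossed pairing and 0 to 257 with a library left out. At 18 months 17 were called, against 0 with median-of-ratios scaling, the block, voom and a pseudocount of 0.1, 1 without the filter, 41 with the length trend removed, 306 with the crossed pairing and 0 to 144 with a library left out. With age, leaving out a library gave 1176 to 4717 genes in control and 722 to 2811 in IOP retinas. The adjusted p alone called 6297 and 5846 genes with age, and no other count of calls moved by over 1.5 times except the interaction, where 2 genes were called without the filter and 2 without 3mo IOP replicate 2. Groups of 2 libraries limit every value.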

Other observations

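Outside the 7 RNAs, 38 other long noncoding RNAs were listed, of which 32 were held in the tables and 22 tested in the single-IOP series. With age in control retinas 1 rose and 1 fell, against 11.6% of all tested genes called in each direction. Mir124a-1hg, a host of the neuronal microRNA miR-124, rose from 156 to 348 FPKM (log2 fold change 1.22, adjusted p = 0.0142), and Mir17hg, the host of a microRNA cluster known from dividing cells, fell from 5.73 to 2.41 FPKM (-1.11, adjusted p = 0.00819). In IOP retinas Six3os1, antisense to the eye field gene Six3, rose by 1.10 in log2. Pantr1 (-1.82), Cdr1os (-1.39) and Mir17hg (-1.38) were the largest of 4 falls there. With a library left out, Pantr1 (-2.54 to -1.11) and Cdr1os (-2.07 to -0.71) stayed called in 1 of 4 fits each, as did Six3os1, and Mir17hg in 4 of 4. In control retinas Mir124a-1hg stayed called in 1 of 4 and Mir17hg in 2 of 4. Of the 22, 0 were called by limma or voom in the single-elevation comparisons, with 0 at an unadjusted p under 0.05 in each. In the repeated-IOP series 22 were tested, with Kcnq1ot1 and Lncpint in place of Crnde and H19, and the same 3 counts were 0 in 4xIOP. Tug1 measured 18.3 to 30.3 FPKM in the single-IOP and 13.1 to 14.6 FPKM in the repeated-IOP libraries.

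Scarna10, a small RNA of Cajal bodies made without a poly(A) tail, measured 3449 to 6323 FPKM in the repeated-IOP and 0 to 1.84 FPKM in the single-IOP libraries, and was chosen after its values were seen. All libraries are labelled as poly(A) RNA, and a library preparation that differed between the series cannot be told apart from the other differences between them. In the single-IOP series Rmrp fell with age in control retinas (3.13 to 1.28 FPKM, log2 fold change -1.01, adjusted p = 0.0352) from 12 to 52 reads, a call kept in 1 of 4 fits with a library left out, and Rpph1 was not called (-1.19, adjusted p = 0.109).

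With age, 11.6% of all tested genes were called higher and 11.6% lower in control retinas, and 10.2% and 11.6% in IOP retinas. In the single-IOP series, retinal pigment epithelium markers summed to 140.0 to 365 FPKM at 3 months and 14.9 to 24.8 FPKM at 18 months. Of 6 tested, 5 fell with age in control and in IOP retinas. Muller glia markers summed to 721 to 1120 FPKM at 3 months and 1628 to 3015 FPKM at 18 months, with 3 of 6 called higher in control and 5 of 6 in IOP retinas. Blood markers summed to 19.5 to 426 FPKM over the 8 single-IOP libraries. They were 166 and 426 FPKM in 18mo control against 44.3 and 54.3 in 18mo IOP, while the 3-month groups overlapped. Of 5 tested, 1 was called higher with age in control and 0 in IOP retinas. Oligodendrocyte markers of the optic nerve summed to 5.93 to 9.15 FPKM at 3 months and 14.1 to 18.2 FPKM at 18 months, with 1 and 2 of 3 tested called higher. Microglia and leukocyte markers summed to 10.4 to 31.9 FPKM at 3 months and 38.3 to 112 FPKM at 18 months, with 3 and 4 of 7 called higher, and lens markers to 2.40 to 33.8 FPKM with 0 of 3 called.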
